A study of Mus musculus with 8 samples.

Results

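Heat shock proteins and chaperonins fold new proteins, hold unfolded ones in solution and return damaged ones to their native shape. The genes described here are 10 by name, Hspa1a, Hspa1b, Hspa8, Hsph1, Dnajb1, Hsp90aa1, Hsp90ab1, Hspd1, Hspe1 and Hspb1, taken as known members of these families. All 10 were found, by Ensembl identifier and GENCODE vM21 symbol, among the 52636 genes of the count table. RNA was sequenced from primary microglia of wild-type (WT) C57BL/6 mice, with 4 libraries from cells given LPS (lipopolysaccharide of bacterial walls) and 4 from cells given vehicle. The cells came from triturated neonatal brains grown as mixed glia, from which microglia were shaken off the astrocyte layer. Every culture, vehicle and LPS alike, was kept in DMEM with fetal bovine serum and the growth factor CSF-1. LPS was given at 5 µg/ml, and RNA was taken 24 h after LPS or vehicle. The labels call the libraries of a group biological replicates.

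HSP70 proteins bind short hydrophobic stretches of unfolded chains in a cycle of ATP hydrolysis, which J-domain proteins start and nucleotide exchange factors such as HSP110 end. HSP90 acts later on kinases, receptors and other clients, and chaperonins enclose a chain in a barrel. Heat and other damage to proteins activate the transcription factor HSF1, which binds repeats of the pentamer NGAAN in the promoters of the inducible genes, while constitutive relatives are made in most cells without stress.

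Vehicle replicates 1 to 4 held 22796052, 22595657, 26129375 and 21370879 counts of uniquely aligned 50-base reads, and LPS replicates 1 to 4 held 20071921, 22529706, 30604447 and 22581615. Levels are given as CPM, counts scaled by TMM to 1e6 per library, which sets libraries to a common level over most genes. The TMM factors did not overlap between the groups, at 1.21 to 1.32 for vehicle and 0.701 to 0.833 for LPS. The lowest factor was that of LPS replicate 3. Across the 13847 tested genes its log2 CPM correlated with that of the other LPS libraries at r of 0.957 to 0.973, against 0.990 between LPS replicates 2 and 4. It held the highest of the 4 LPS values for 41.0% of these genes. LPS replicate 1, at 0.957 to 0.979, held the lowest for 33.7%, and LPS replicate 3 for 33.6%. Vehicle replicate 3 correlated with its group at 0.971 to 0.975, against 0.993 between vehicle replicates 2 and 4. Thus LPS replicates 1 and 3 and vehicle replicate 3 each differed somewhat from the rest of their group, and none was left out. These correlations are over genes, which are not independent replicates.

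The label of the cells was checked with marker lists of 10 genes each. All 10 microglial markers passed the filter on low counts, and the list summed to 9769, 10159.6, 11518 and 9812 CPM in vehicle replicates 1 to 4 and to 3065, 2612, 2788 and 2660.2 CPM in LPS replicates 1 to 4. Its most abundant gene was Csf1r, the receptor of CSF-1, at 3178 ± 378 CPM in vehicle and 426 ± 213 CPM after LPS (SD, n = 4 each). The microglial list thus far exceeded every other list in each library, although 8 of its genes were lower after LPS and 1 was higher. For this and every later list, the shares over all tested genes are 33.8% lower and 30.3% higher, and no list was tested as a whole. The astrocyte list summed to 38.1, 47.7, 20.5 and 45.8 CPM in vehicle and 124, 41.3, 45.6 and 49.3 CPM after LPS, with Gjb6 at no more than 3 counts in any library. Of its 8 tested genes 1 was higher and 3 were lower (4 lower with the replicate block, which takes same-numbered libraries as pairs, and 5 with total counts). Gja1, the most abundant over all 8 libraries, was at 0.872 ± 0.221 CPM in vehicle and 48.5 ± 33.1 CPM after LPS. The list of oligodendrocyte precursors (OPC) summed to 92.7, 142, 27.5 and 135 CPM in vehicle and 139, 65.4, 63.7 and 64.0 CPM after LPS, with Neu4 at that floor. Of its 7 tested genes 1 was higher and 3 were lower (6 lower with the replicate block and 5 with total counts), with Vcan, the most abundant over all 8 libraries, at 16.6 ± 7.58 CPM in vehicle and 61.2 ± 30.3 CPM after LPS. The astrocyte and OPC sums were lowest in vehicle replicate 3 and, among LPS libraries, highest in replicate 1. The oligodendrocyte list summed to 184, 174, 205 and 150.1 CPM in vehicle and 212, 225, 188 and 237 CPM after LPS, with Mobp, Ermn and Opalin at the floor. Cnp, the most abundant over all libraries, was at 88.5 ± 24.8 CPM in vehicle and 194.7 ± 23.1 CPM after LPS, and made up most of the sum after LPS. Of the 4 tested genes of this list 1 was higher and 1 was lower (2 lower with total counts), with a median log2 fold change of −0.71.

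The endothelial list was higher in every LPS library, at 248, 272, 196 and 268 CPM against 37.3, 84.2, 55.6 and 82.9 CPM in vehicle. Flt1 was its most abundant gene over all libraries, while Cldn5, Tek, Ly6c1 and Esam, which define endothelial cells, had at most 3 counts in each library. The neuronal list, with Map2 most abundant, summed to 37.7, 43.4, 14.8 and 50.5 CPM in vehicle and 22.9, 11.5, 5.27 and 13.9 CPM after LPS. Of its 7 tested genes 0 were higher and 5 lower (6 lower with the replicate block and with total counts). The fibroblast list summed to 8.99, 5.53, 7.19 and 4.29 CPM in vehicle and 13.2, 12.8, 28.7 and 8.86 CPM after LPS, with Mgp at the floor, and Dcn, its most abundant gene over all libraries, was at 0.136 ± 0.0885 CPM in vehicle and 8.89 ± 7.06 CPM after LPS. Of the 4 tested fibroblast genes 1 was higher and 0 lower (2 higher with the replicate block, and 1 higher and 1 lower with total counts). Chaperone genes are active in all of these cell types. In RNA from whole cultures, fewer cells of a type and less RNA per cell cannot be told apart, and the part of other cells in the values below was not tested.

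Of the 10 genes, 9 passed the filter on low counts and were tested by the edgeR fit over all 13847 genes, and Hspb1 did not. After LPS, 7 of the 9 were higher at an adjusted p under 0.05 (Hspa1a, Hspa1b, Hspa8, Hsph1, Dnajb1, Hsp90aa1 and Hsp90ab1), against 30.3% of all tested genes. Hspd1 was lower, against 33.8% of all tested genes, and Hspe1 did not pass. LPS changed so many genes that a call alone says little about these 9, since 64.1% of all tested genes were called in either direction. The median log2 fold change was 0.77 over the 9 genes and −0.11 over all tested genes. The LPS libraries lay above all vehicle libraries for the 7 higher genes (28.7% of all tested genes) and below them for Hspd1 (31.5% of all tested genes), and overlapped for Hspe1. Without LPS replicate 3 the calls of the 9 genes were again 7 higher and 1 lower.

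The size of the smaller changes rests on the scaling. With total counts alone in place of TMM, the median of all tested genes moved by −0.68, to −0.79, and the calls over all genes moved from 4191 higher and 4686 lower to 1989 higher and 8454 lower. On that scale 4 of the 9 genes were higher (Hspa1a, Hspa1b, Hsp90aa1 and Dnajb1) and 2 were lower (Hspd1 and Hspe1). The 2 scalings differ by a shift that is nearly the same for every gene, so positions relative to the median of all genes are the same on both by construction, with 7 of the 9 genes above that median and Hspd1 and Hspe1 below it.

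**Figure D1:**
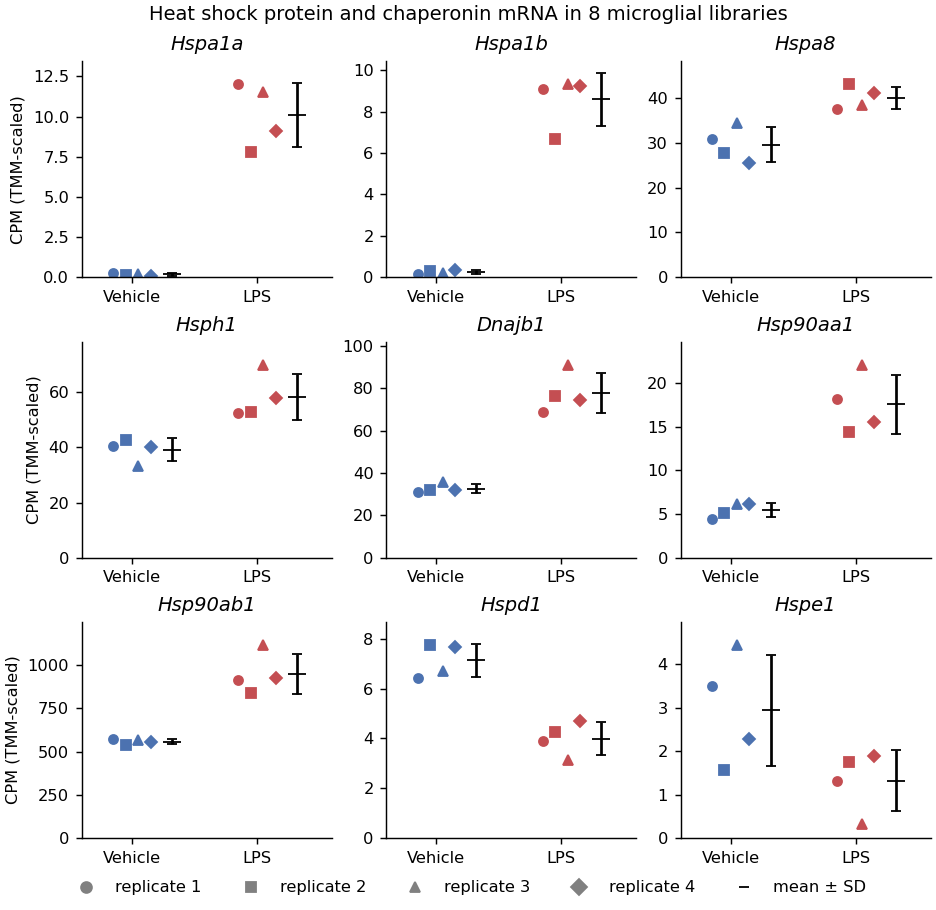
CPM (counts scaled by TMM to 1e6 per library, axes from 0) of 9 genes in the 4 vehicle and 4 LPS libraries, with a marker for each replicate number and the mean ± SD at the right of each group. The LPS libraries lie above all vehicle libraries in 7 panels and below them for Hspd1, and they overlap for Hspe1. With total counts in place of TMM, Hspa8 and Hsph1 had negative changes (−0.24 and −0.12).

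Hspa1a and Hspa1b encode the stress-inducible HSP70 proteins, which differ by few residues and are nearly absent from most unstressed cells. Hspa1a (ENSMUSG00000091971) lies on chromosome 17 from 34969190 to 34972156 on the minus strand of GRCm38 and has no intron. It had 8, 4, 6 and 2 counts in vehicle replicates 1 to 4, or 0.280, 0.138, 0.190 and 0.0709 CPM. After LPS it had 201, 143, 247 and 168 counts, or 12, 7.78, 11.5 and 9.08 CPM. The gene was at a few counts in each vehicle library and well over 100 in each LPS library. The rise was 57.6-fold (log2 fold change 5.85, SE 0.34, adjusted p = 7.68e-07).

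Hspa1b (ENSMUSG00000090877), its neighbour, lies on chromosome 17 from 34956436 to 34959238 on the minus strand and is intronless too. Its counts were 4, 9, 6 and 10 in vehicle and 152, 123, 200 and 171 after LPS, which is 0.140, 0.311, 0.190 and 0.355 CPM and 9.09, 6.69, 9.32 and 9.24 CPM. Again no vehicle library came near any LPS library. The rise was 33.9-fold (log2 fold change 5.08, SE 0.30, adjusted p = 8.14e-07), and with total counts the log2 fold changes were 5.18 for Hspa1a and 4.41 for Hspa1b. The pair shares much of its sequence, and only reads with a unique alignment were counted. Of the 50-base windows of their transcripts, 66.3% for Hspa1a and 62.3% for Hspa1b occur unchanged in a transcript of another gene. The split of counts between the 2 genes is therefore uncertain, and their levels are too low by the reads that were set aside. Summed to 1 gene, they had a log2 fold change of 5.46 (SE 0.19, adjusted p = 7.73e-08). Antisense exons of Gm20481 cover 19% of the exonic bases of Hspa1a, and Gm20481 had 0 counts in every library.

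Hspa1l, a further HSP70 gene on the other side of Hspa1a, is named here after its values were seen. It had 8, 6, 5 and 5 counts in vehicle and 15, 19, 29 and 28 after LPS (log2 fold change 2.52, SE 0.34, adjusted p = 1.39e-04). Its LPS libraries were above its vehicle libraries as well. Exons of the antisense gene Gm10501 cover 71.9% of the bases in its exons, and without the use of strand the reads of the 2 genes would be mixed. Gm10501 had 1, 6, 1 and 3 counts in vehicle and 0, 0, 1 and 0 after LPS. Of the windows of Hspa1l, 7.72% were shared with Hspa1b and 1.86% with Hspa1a, with up to 2 mismatches. The part of reads from Hspa1a and Hspa1b in the counts of Hspa1l was not tested.

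The sequences before the starts of these genes are shown because the near-identity of the pair extends beyond the transcript. Sequences of this kind, from RefSeq on GRCm38.p6, were matched for 7 of the 10 genes (10 sequences), and not for Hspa8, Hsp90aa1 and Hsp90ab1. The 250 bases before each start were searched for GAANNTTC and TTCNNGAA, the 2 ways in which a pair of HSF1 half-sites can face each other. Each of these reads the same on both strands, and they may overlap by 3 bases. Over all 32851 RefSeq sequences of this length, 6.69% hold GAANNTTC, 7.17% hold TTCNNGAA and 12.8% hold either. Hspa1a and Hspa1b each hold GAANNTTC once, 104 to 97 bases before the start, in capitals below. The Hspa1a sequence is chr17:34972157-34972406 and that of Hspa1b is chr17:34959239-34959488, both 5′ to 3′ on the minus strand and outside annotated exons.
Hspa1a: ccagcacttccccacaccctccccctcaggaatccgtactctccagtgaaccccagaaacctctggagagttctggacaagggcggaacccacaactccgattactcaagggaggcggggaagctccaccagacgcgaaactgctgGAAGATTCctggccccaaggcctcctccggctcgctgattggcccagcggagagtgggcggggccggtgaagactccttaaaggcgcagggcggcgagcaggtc
Hspa1b: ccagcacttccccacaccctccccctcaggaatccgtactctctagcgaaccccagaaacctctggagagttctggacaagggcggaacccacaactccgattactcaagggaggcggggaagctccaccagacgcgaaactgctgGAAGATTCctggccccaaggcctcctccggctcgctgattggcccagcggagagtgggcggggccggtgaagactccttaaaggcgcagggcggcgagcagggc
The 2 sequences are identical at 247 of 250 bases. They differ by C44T, T47C and T249G, with the base of Hspa1a first, the position counted from 1 at the 5′ end and the base of Hspa1b last. A match is a run of letters and not a measured binding site.

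Hspa8 encodes HSC70, the constitutive HSP70 of the cytosol, which also takes part in clathrin uncoating and in chaperone-mediated autophagy. The gene (ENSMUSG00000015656) lies on chromosome 9 from 40800984 to 40810087 on the plus strand. It was at 30.9, 27.8, 34.4 and 25.6 CPM in vehicle and 37.6, 43.1, 38.4 and 41.1 CPM after LPS. The lowest LPS library lay just above the highest vehicle library. The rise was 1.35-fold (log2 fold change 0.43, SE 0.11, adjusted p = 0.00721), but with total counts the value was −0.24 (adjusted p = 0.0834), and measured from the median of all genes it was 0.54 and 0.55 on the 2 scales. Raw counts ran from 721 to 1085 in vehicle and from 629 to 824 after LPS. Of the 50-base windows of Hspa8, 39.4% recur in other transcripts, most of them in Gm26825, which had 0 counts in all 8 libraries. The level of Hspa8 is therefore a low estimate. The search covered annotated transcripts and not the rest of the genome.

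Hsph1 encodes HSP110, which releases ADP from HSP70 and, with HSC70 and a J-domain protein, takes apart aggregates. The gene (ENSMUSG00000029657) lies on chromosome 5 from 149614287 to 149636376 on the minus strand. It was at 40.4, 42.7, 33.4 and 40.3 CPM in vehicle and 52.4, 52.9, 70 and 57.9 CPM after LPS. LPS replicate 3 was the highest and vehicle replicate 3 the lowest, and the groups did not overlap. The rise was 1.49-fold (log2 fold change 0.57, SE 0.12, adjusted p = 0.00260), with 0.48 without LPS replicate 3 and −0.12 with total counts (adjusted p = 0.360). No 50-base window of Hsph1 recurs in another transcript, even with 2 mismatches.

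Dnajb1 encodes HSP40, the J-domain protein that delivers unfolded chains to HSP70 and starts its ATP hydrolysis. The gene (ENSMUSG00000005483) lies on chromosome 8 from 83608193 to 83612653 on the plus strand. It was at 31.0, 32.1, 35.7 and 31.8 CPM in vehicle and 68.9, 76.2, 91.2 and 74.7 CPM after LPS. Every LPS library was well above every vehicle library, and LPS replicate 3 was the highest. The rise was 2.38-fold (log2 fold change 1.25, SE 0.11, adjusted p = 8.62e-06), and it was called with total counts too (0.57, adjusted p = 1.43e-04). Only 0.412% of its windows recur elsewhere. Neither of its 2 RefSeq sequences before a start holds an exact match of GAANNTTC or TTCNNGAA in these 250 bases. The sequence chr8:83608298-83608547 lies inside the gene, with 245 of its 250 bases in annotated exons.

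A ratio of 2 genes within a library does not depend on the scaling between libraries, so 5 such ratios of RPKM (CPM per kilobase of exon) were compared, on the log2 scale, by an exact permutation test. The ratio of Hspa1a plus Hspa1b to Hspa8 sets inducible against constitutive HSP70. It was −5.64, −5.36, −5.92 and −5.30 in vehicle replicates 1 to 4 and −0.26, −1.0, −0.31 and −0.59 in LPS replicates 1 to 4. The distance from 0 of this and the other ratios to Hspa8 depends on shared windows. Their exact shares were 66.3% for Hspa1a, 62.3% for Hspa1b and 39.4% for Hspa8. The change of a ratio between groups compares the same windows. The balance moved toward the inducible genes in every LPS library, by 5.02 on average (exact permutation test, two-sided, p = 0.0286, which is the smallest for 4 against 4, and 0.0476 adjusted over the 5 ratios). With same-numbered libraries as pairs (replicate block), an exact permutation test by sign flips did not call it, at p = 0.125, which is the smallest for 4 pairs, and an adjusted p of 0.208. The ratio of Dnajb1 to Hspa8 was 0.43, 0.63, 0.48 and 0.74 in vehicle and 1.30, 1.25, 1.67 and 1.29 after LPS, a difference of 0.81 with the same exact permutation p and adjusted p, and the same 0.208 with the block. All 4 LPS libraries lay above all vehicle libraries for this ratio. The ratio of Hsph1 to Hspa8 was −0.37, −0.14, −0.80 and −0.10 in vehicle and −0.28, −0.46, 0.11 and −0.26 after LPS. These groups overlapped, and the difference of 0.13 lay within their spread (exact permutation test p = 0.6, adjusted p = 0.6) and was −0.021 without vehicle replicate 3.

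**Figure D2:**
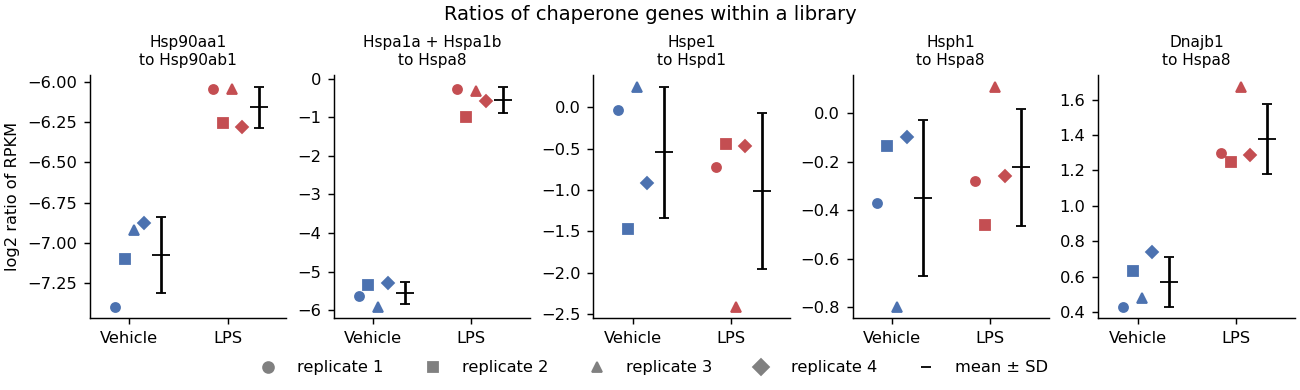
The log2 ratio of RPKM for 5 pairs of genes within each vehicle and LPS library, each panel on its own scale, with a marker for each replicate number and the mean ± SD beside each group. The groups separate for Hsp90aa1 to Hsp90ab1, for Hspa1a plus Hspa1b to Hspa8 and for Dnajb1 to Hspa8, and overlap for the other two.

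Hsp90aa1 encodes HSP90α, the inducible form of cytosolic HSP90, and Hsp90ab1 encodes HSP90β, the constitutive form. Hsp90aa1 (ENSMUSG00000021270) lies on chromosome 12 from 110690605 to 110702728 on the minus strand. It was at 4.44, 5.12, 6.12 and 6.17 CPM in vehicle and 18.2, 14.4, 22.1 and 15.6 CPM after LPS. Every LPS library was at more than double the highest vehicle library. The rise was 3.22-fold (log2 fold change 1.69, SE 0.18, adjusted p = 3.01e-05), with 1.00 (adjusted p = 3.99e-04) with total counts. Its level is a low estimate, since 47.5% of its windows recur, chiefly in the pseudogenes Gm5844 and Gm12346. Gm12346 itself had 44, 55, 62 and 53 counts in vehicle and 94, 103, 124 and 100 after LPS, so the unique reads of this pseudogene moved the same way.

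Hsp90ab1 (ENSMUSG00000023944) lies on chromosome 17 from 45567775 to 45573271 on the minus strand. It was at 573, 536, 565 and 554 CPM in vehicle and 915, 840.2, 1115 and 922 CPM after LPS. The vehicle libraries were close together, and LPS replicate 3 was the highest of the LPS libraries. The rise was 1.70-fold (log2 fold change 0.77, SE 0.12, adjusted p = 4.32e-04), but 0.08 with total counts (adjusted p = 0.436). The log2 ratio of Hsp90aa1 to Hsp90ab1 was −7.40, −7.10, −6.92 and −6.88 in vehicle and −6.04, −6.26, −6.04 and −6.28 after LPS. It was higher in each LPS library, by 0.92 on average (two-sided exact permutation test p = 0.0286, adjusted p = 0.0476, and adjusted p = 0.208 with the replicate block). The distance of the ratio from 0 is inflated by the windows that Hsp90aa1 shares, whereas its change between groups compares the same windows. Both genes of the HSP90 list were thus higher, with a median log2 fold change of 1.23 (1 higher and 0 lower with total counts).

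Hspd1 (HSP60) and Hspe1 (HSP10) encode the barrel and the lid of the mitochondrial chaperonin, which folds proteins imported into the matrix. They lie head to head, Hspd1 (ENSMUSG00000025980) on chromosome 1 from 55077835 to 55088243 on the minus strand and Hspe1 (ENSMUSG00000073676) from 55088132 to 55091307 on the plus strand, with 112 exonic bases in common. Hspd1 was at 6.43, 7.74, 6.69 and 7.66 CPM in vehicle and 3.89, 4.24, 3.12 and 4.70 CPM after LPS. All LPS libraries were below all vehicle libraries. The fall was 1.79-fold (log2 fold change −0.84, SE 0.17, adjusted p = 0.00202), and −1.51 with total counts. Reads of its processed pseudogene Hspd1-ps3, which shares 54.2% of the windows of Hspd1 with up to 2 mismatches, were at 306, 315, 332 and 309 counts in vehicle and 118, 110, 164 and 170 after LPS. They outnumbered those of Hspd1 itself and were lower after LPS too (log2 fold change −0.53, adjusted p = 0.0112). Which copy such near-identical reads came from was not tested.

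Hspe1 was at 3.50, 1.56, 4.44 and 2.27 CPM in vehicle and 1.32, 1.74, 0.326 and 1.89 CPM after LPS. Vehicle replicate 2 lay among the LPS libraries, and LPS replicate 3 was by far the lowest, with 7 counts. The log2 fold change of −1.16 (SE 0.50) did not pass (adjusted p = 0.0662). It passed with upper quartile scaling (adjusted p = 0.0488) and with total counts (−1.79, adjusted p = 0.0119), and was −0.83 without LPS replicate 3. The log2 ratio of Hspe1 to Hspd1 was −0.04, −1.47, 0.25 and −0.91 in vehicle and −0.72, −0.44, −2.42 and −0.47 after LPS. It varied more within a group than between groups (difference −0.47, exact permutation test p = 0.543, adjusted p = 0.6), and the difference was −0.0019 without LPS replicate 3 and −0.78 without vehicle replicate 2. Transcripts encoded in the mitochondrial genome took 0.419, 0.400, 0.410 and 0.518% of the counts of vehicle replicates 1 to 4 and 0.136, 0.114, 0.237 and 0.151% of those of LPS replicates 1 to 4. These shares were lower in every LPS library, and their part in the values of Hspd1 and Hspe1 was not tested.

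The stretch between a start of Hspd1 and that of Hspe1 is shown because it holds 3 overlapping matches of the half-site pairs beside genes that did not rise. They run over 18 bases, 89 to 72 bases before the start of Hspe1 at 55088148, and before the Hspd1 start at 55087932. The other Hspd1 start, at 55088243, has no match in the 250 bases before it, and the matches lie downstream of it, inside the gene. Such a row of at least 3 half-sites, GAA and TTC in turn with 2 bases between them, is found in 0.466% of all RefSeq sequences of this length. Hsph1 holds 1 match, TTCTCGAA. Each sequence of 30 bases is given 5′ to 3′ with the matches in capitals, Hspe1 as chr1:55088053-55088082 on the plus strand, and Hsph1 as chr5:149636351-149636380 on the minus strand. The matches lie inside annotated exons of Hspd1 and of Hsph1.
Hspe1: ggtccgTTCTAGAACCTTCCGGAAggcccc
Hsph1: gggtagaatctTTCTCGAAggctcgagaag
Matches therefore stood before genes that were higher (Hspa1a, Hspa1b and Hsph1, the last at −0.12 with total counts), before 1 of the 2 starts of Hspd1, which was lower, and before Hspe1, which did not pass. The 2 sequences of Dnajb1, 1 of which lies inside the gene, held none, and Dnajb1 was higher with TMM and with total counts. The sequence of Hspb1, which had no reads, held 2.

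Hspb1 encodes HSP27 (HSP25 in mice), a small heat shock protein that holds unfolded chains without ATP. The gene (ENSMUSG00000004951) lies on chromosome 5 from 135887919 to 135889563 on the plus strand. It had 0 counts in all 8 libraries and could not be tested. A count of 0 allows up to 3 counts, which is at most 0.106 CPM in a vehicle library and 0.179 CPM in an LPS library, for counting error only. Of its windows 50.1% recur unchanged elsewhere, mostly in the pseudogene Hsp25-ps1, which had at most 1 count in any library. Its other windows were open to unique reads and gave none. The 250 bases before its start, chr5:135887669-135887918 on the plus strand, hold GAANNTTC at 2 places, in capitals, and are shown as the case in which matches stand before a gene without reads.
Hspb1: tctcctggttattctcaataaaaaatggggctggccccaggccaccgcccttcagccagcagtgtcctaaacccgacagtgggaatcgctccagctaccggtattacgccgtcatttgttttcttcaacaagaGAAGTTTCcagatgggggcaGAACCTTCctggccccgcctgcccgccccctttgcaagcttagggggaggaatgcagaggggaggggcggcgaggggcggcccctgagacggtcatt

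Per kilobase of exon, Hsp90ab1 was far above the rest in vehicle, at 186 ± 5.37 RPKM (SD, n = 4, as for all levels in this paragraph). It was followed by Dnajb1 at 10.2 ± 0.650, Hspa8 at 6.89 ± 0.890 and Hsph1 at 5.40 ± 0.557 RPKM, each without overlap with the next. Hspd1 (2.70 ± 0.253 RPKM), Hspe1 (1.99 ± 0.868 RPKM) and Hsp90aa1 (1.39 ± 0.213 RPKM) came next, with libraries of neighbours overlapping. Hspa1b (0.0888 ± 0.0359 RPKM) and Hspa1a (0.0572 ± 0.0297 RPKM) overlapped at the bottom, above Hspb1 at 0. After LPS the leading order was the same, Hsp90ab1 at 316 ± 39.0, Dnajb1 at 24.3 ± 2.97, Hspa8 at 9.31 ± 0.590 and Hsph1 at 8.02 ± 1.13 RPKM, now with Hspa8 and Hsph1 overlapping. Hsp90aa1 (4.47 ± 0.871 RPKM), Hspa1a (3.40 ± 0.676 RPKM) and Hspa1b (3.06 ± 0.452 RPKM) overlapped in turn and had passed Hspd1 (1.51 ± 0.253 RPKM) and Hspe1 (0.894 ± 0.478 RPKM). The order holds for uniquely aligned reads only, because the shares of windows lost to copies differ from 0% for Hsph1 to 66.3% for Hspa1a.

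For each gene the profile of log2 CPM over the 8 libraries, centred on its mean, was set against 11080 other genes whose log2 CPM averaged 1 or more, and the gene with the smallest root mean square (RMS) difference was taken. Nearest to Hspa1a was Gpr18 (RMS difference 0.209) and nearest to Hspa1b was Dusp5 (0.30). The smallest of 11080 differences tends to be below that of any fixed pair, so it does not set the scale for a pair. The 2 HSP70 genes differed from each other by 0.679. They had at most 8 and 10 counts in any vehicle library, and the split of reads between them is uncertain. Os9 was nearest to Hspa8 (0.0494), Sbno1 to Hsph1 (0.0578), Fyb to Dnajb1 (0.0346), Wdfy1 to Hsp90aa1 (0.119) and Ube2j1 to Hsp90ab1 (0.0513). Ddx21 was nearest to Hspd1 (0.0688) and Rps10-ps1 to Hspe1 (0.313). Among the 9 genes themselves the closest were Hsp90ab1 and Hsph1, at 0.153. Hsp90ab1 was also the closest of the 9 to Hspa8 (0.240) and to Dnajb1 (0.258), and Dnajb1 to Hsp90aa1 (0.271). The chaperonin genes were farther off, with Hspd1 closest to Hspe1 (0.717) and Hspa8 closest to Hspd1 (0.676).

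The factors that drive heat shock genes and Hsbp1 form a list of 6 genes, of which 4 were tested, 2 were higher and 2 lower (0 and 2 with total counts), against 30.3% and 33.8% of all tested genes, with a median of −0.02. Hsf1, the main regulator of the heat shock response, was lower after LPS, from 20.2 ± 1.93 to 11.1 ± 2.96 CPM (SD, n = 4 each), a log2 fold change of −0.87 (SE 0.20, adjusted p = 0.00376). Hsf2, which can pair with HSF1, was higher, from 15.1 ± 0.434 to 27.2 ± 4.09 CPM, a change of 0.85 (SE 0.12, adjusted p = 2.05e-04). Hsbp1, whose protein binds HSF1 and holds it back, was higher as well, from 96.7 ± 3.74 to 170.5 ± 23.5 CPM, a change of 0.82 (SE 0.12, adjusted p = 1.81e-04). With total counts Hsf2 (0.16) and Hsbp1 (0.15) were no longer called. Hsf4, a factor of the lens, was near the limit of detection, at 0.711 ± 0.368 and 0.174 ± 0.197 CPM, and its fall of −2.01 (SE 0.74, adjusted p = 0.0365) was not called without LPS replicate 3 (adjusted p = 0.0862), without vehicle replicate 3 (adjusted p = 0.105) or with a replicate block (adjusted p = 0.0537). With a library left out in turn, the log2 fold change of Hsf4 ranged from −2.94 to −1.54. Hsf3 and Hsf5 were too low to be tested. Activation of HSF1 is set by its trimer formation and modification, which mRNA levels do not show.

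A list of 13 genes known as HSF1 targets in other cells, none of them among the 10, was tested in full. Of these, 7 were higher, 1 was lower and 5 were not called, with a median log2 fold change of 0.52 against −0.11 over all tested genes. The shares over all tested genes were 30.3% higher and 33.8% lower. With total counts 4 genes of this list were higher and 6 lower, and with the replicate block 7 were higher and 4 lower. Ubb, which encodes ubiquitin, rose, 1.61 (SE 0.12, adjusted p = 3.44e-06), and 48.1% of its windows recur in other transcripts. Fkbp4, a cochaperone of HSP90 in steroid receptor complexes, was the gene that fell, by 1.61 on the log2 scale (SE 0.13, adjusted p = 5.83e-06). Changes of this list did not approach that of Hspa1a or Hspa1b.

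Among cochaperones of HSP90, 6 were higher and 5 lower of 15 tested, with a median of 0.23 (2 higher and 9 lower with total counts). Sugt1, 0.91 (SE 0.12, adjusted p = 1.32e-04), and Chordc1, 0.90 (SE 0.10, adjusted p = 5.23e-05), which act together in HSP90 complexes with immune receptors, rose most. Besides Fkbp4, the cyclophilin Ppid fell, −1.40 (SE 0.24, adjusted p = 5.75e-04). Of 9 cochaperones of HSP70, 1 was higher and 4 were lower, with a median of −0.26 (0 higher and 7 lower with total counts). Bag1, a nucleotide exchange factor, rose, 0.84 (SE 0.10, adjusted p = 7.03e-05), while Hspbp1, −1.32 (SE 0.33, adjusted p = 0.00650), another exchange factor, and Bag4, −1.06 (SE 0.14, adjusted p = 1.05e-04), fell.

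Of the 12 HSP70 and HSP110 genes, 10 were tested, 7 were higher and 2 lower (4 and 4 with total counts), with a median of 0.50, and outside the 10 genes described above 3 were higher and 2 lower of 6 tested. Hspa4l, an HSP110 gene, rose most of those past a mean log2 CPM of 1, 1.49 (SE 0.27, adjusted p = 8.34e-04). Hspa13 rose by 0.43 (SE 0.11, adjusted p = 0.00639) but was lower with total counts (−0.25). Hspa4, −0.37 (SE 0.09, adjusted p = 0.00630), and Hspa2, −0.62 (SE 0.22, adjusted p = 0.0315), were lower, Hspa2 not without vehicle replicate 3 (adjusted p = 0.0929). So the HSP110 genes Hsph1 and Hspa4l were higher where the third, Hspa4, was lower. Of 9 small heat shock genes, Hspb1 included, 4 were tested, 0 were higher and 2 lower (4 lower with total counts), with a median of −0.96, and no gene of this list met the rule for naming.

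J-domain proteins choose the substrates and places of HSP70. Of 17 DNAJA and DNAJB genes 14 were tested, 8 were higher and 4 lower, with a median of 0.47, and with total counts 3 were higher and 7 lower. Apart from Dnajb1, the largest rises were of Dnajb6, 1.16 (SE 0.14, adjusted p = 7.94e-05), which prevents aggregation, and Dnajb9, 1.06 (SE 0.13, adjusted p = 7.76e-05), of the endoplasmic reticulum (ER). Dnajb14, a J-domain protein of the ER membrane, fell most of those past a mean log2 CPM of 1, −2.07 (SE 0.14, adjusted p = 1.83e-06), and Dnajb5 fell by 0.80 (SE 0.21, adjusted p = 0.00724). The family thus held changes in both directions that were larger than that of Hspa8. Of 30 DNAJC genes and relatives, 28 were tested, 7 were higher and 9 lower (10 lower without LPS replicate 3, and 2 higher and 20 lower with total counts), with a median of −0.10, close to that of all genes. The largest changes were those of Dnajc21 (log2 fold change 1.54) and Dnajc1 (1.10) upward and of Dnajc28 (−2.75) and Hscb (−1.61) downward, each with an adjusted p of at most 6.41e-04.

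The cytosolic chaperonin CCT, which folds actin and tubulin, is a ring of 8 different subunits. All 8 genes were tested, and 2 were higher, 2 lower and 4 not called (0 higher and 7 lower with total counts), with a median of 0.01. Cct3, 0.39 (SE 0.10, adjusted p = 0.00751), and Cct7, 0.35 (SE 0.09, adjusted p = 0.00840), were higher, but negative with total counts (−0.28 and −0.32). Cct2, −0.39 (SE 0.09, adjusted p = 0.00268), and Cct5, −0.31 (SE 0.10, adjusted p = 0.0180), were lower, Cct5 not without vehicle replicate 3 (adjusted p = 0.119). The log2 fold changes of Tcp1, Cct4, Cct6a and Cct8 were 0.04, −0.15, −0.02 and 0.19. Mean levels of the 8 genes ran from 83.6 to 190.0 CPM in vehicle. Prefoldin, which hands actin and tubulin to CCT, had 3 genes higher and 2 lower of 6 (0 and 4 with total counts) and a median of 0.32, with Pfdn1 (0.53) and Pfdn6 (0.47) leading the rises, both negative with total counts (−0.14 and −0.20), and Pfdn2 (−0.74) and Pfdn5 (−0.46) the falls.

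Of 13 mitochondrial chaperones and proteases, Hspd1 and Hspe1 included, 3 were higher, 7 lower and 3 not called (0 higher and 10 lower with total counts), with a median of −0.66. Outside those 2 genes it was −0.48, with 6 lower of 11. Trap1, the mitochondrial HSP90, fell, −1.03 (SE 0.13, adjusted p = 7.89e-05), as did Hscb, a J-domain protein of iron-sulfur cluster assembly, −1.61 (SE 0.28, adjusted p = 6.41e-04). Grpel1, the exchange factor of mitochondrial HSP70, 0.66 (SE 0.08, adjusted p = 6.18e-05), and the protease Lonp1, 0.54 (SE 0.10, adjusted p = 9.84e-04), were higher, and were at −0.01 and −0.13 with total counts.

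Chaperones of the ER serve secreted and membrane proteins. Of 14 genes, 7 were higher, 1 was lower and 6 were not called, with a median of 0.56, and with total counts 2 were higher and 4 lower. Without LPS replicate 3, 6 were higher. Creld2, 1.39 (SE 0.17, adjusted p = 7.98e-05), and Dnajb9 rose most, and Dnajc3 fell, −0.57 (SE 0.15, adjusted p = 0.00730). None came near the change of Hspa1a or Hspa1b. For comparison, all 8 genes of a list of LPS response genes were higher, with a median of 6.88, led by Nos2 (1.02 ± 0.461 CPM in vehicle and 11572 ± 452 CPM after LPS) and Il6 (0.121 ± 0.201 and 500.0 ± 242 CPM), the latter near the floor in vehicle. Of 12 immediate early genes, which are induced within minutes by growth factors or stress and also by handling of cells, 7 were higher and 3 lower (4 and 4 with total counts), with a median of 1.06. Ier3 (5.18) and Dusp1 (4.90) rose about as much as Hspa1b, while Fos (−1.91) and Egr2 (−1.84) fell. The part of handling in the level of the inducible HSP70 genes was not tested.

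**Figure D3:**
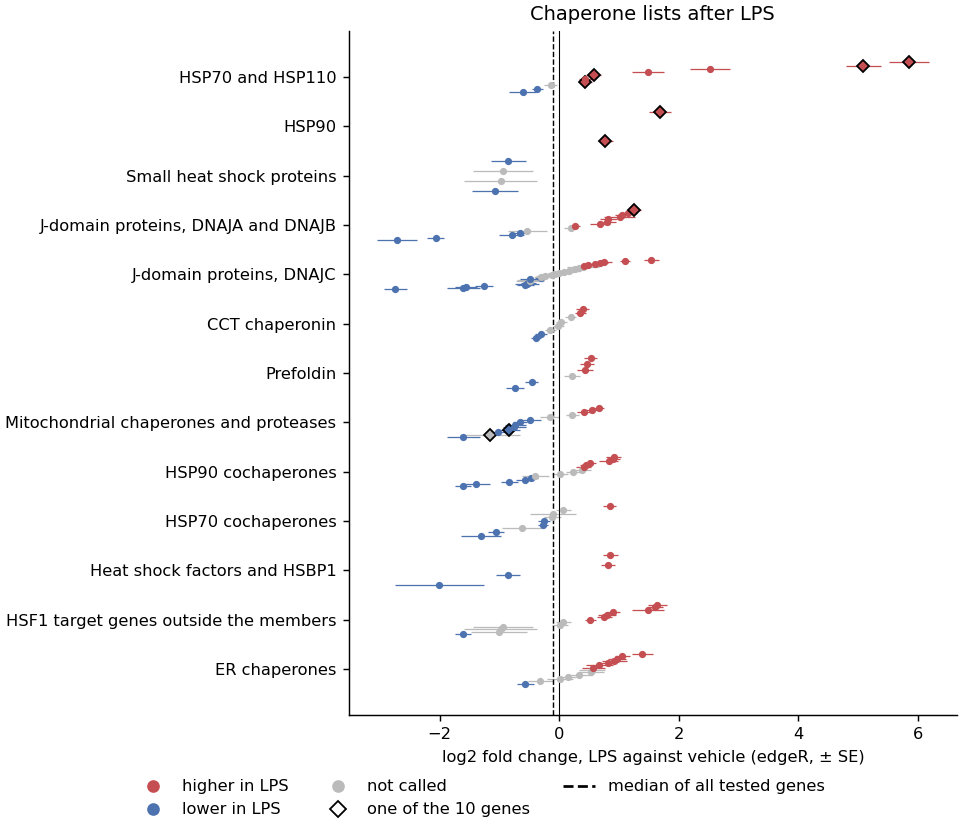
The log2 fold change ± SE (edgeR, LPS against vehicle, TMM scaling) of each tested gene in 13 chaperone lists, coloured by its call at an adjusted p under 0.05, with the genes described singly as diamonds and the median of all tested genes (−0.11) as a dashed line. Hspa1a and Hspa1b lie at the far right, the CCT genes lie near 0, and mitochondrial genes lie on both sides. With total counts the median of all genes was −0.79, and small positive changes such as those of Hspa8, Hsph1, Cct3 and Cct7 turned negative.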

How the data were processed

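The authors aligned single-end 50-base reads to GRCm38 with GSNAP, kept unique alignments, counted them with HTSeqGenie and deposited raw counts per Ensembl gene, without normalization. The sources used here differ on kit and sequencer and give neither the annotation release nor whether strand was used. All 8 columns were mapped to a library. Symbols, positions and transcripts came from GENCODE vM21, and start sequences from RefSeq (GRCm38.p6).

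Counts were fitted with edgeR 4.0.16 in R 4.3.3 (TMM, filterByExpr at its settings of 10 for the count and 15 for the total, quasi-likelihood test on group alone, two-sided, Benjamini-Hochberg over 13847 genes, threshold 0.05). Windows of 50 bases were searched in all annotated transcripts with up to 2 mismatches. Ratios were tested over the 70 divisions of 8 libraries into 4 and 4. Tables used Python 3.11.15, pandas 2.3.3 and numpy 2.4.6, and figures matplotlib 3.10.9.

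The alternatives were DESeq2 1.42.0, no filter, a filter of 10 counts in each library, factors from upper quartiles, total counts, a replicate block, a threshold of 0.01, a log2 change of at least 1, each library left out in turn, and Hspa1a and Hspa1b summed. For ratios they were each library left out, a replicate block, the arithmetic ratio and counts in place of RPKM. Counts of list genes with total counts and without LPS replicate 3 were added after seeing the data.

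Over 8381 genes, deviations of same-numbered vehicle and LPS libraries from their group means correlated at r of 0.361, 0.183, 0.183 and 0.130 for replicates 1 to 4. These all exceeded 0.1. Of the pairs with different numbers, 2 did so too, vehicle 2 with LPS 4 (0.154) and vehicle 4 with LPS 2 (0.141), both above the 0.130 of replicate 4. By the rule that every same-numbered pair exceed 0.1, the numbers were taken to pair the libraries, from the data and not from the labels, and a blocked value is given where it changes a call.

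The 10 genes, the 15 gene lists and the 7 marker lists (microglia, astrocyte, oligodendrocyte, OPC, endothelial cell, neuron and fibroblast) were chosen with earlier results of these data known. Genes named are the 10, all genes of the HSP90, CCT and heat shock factor lists, and in each other list the 2 largest rises and 2 largest falls with a call in the fit, an average log2 CPM of 1 or more and no overlap between groups. Of markers, the most abundant gene of a list and those with at most 3 counts in each library are named, and for each of the 10 the gene with the nearest profile. A gene that meets these rules is not reported here.

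The design has 4 libraries per group, 1 dose and 1 time, so the course of the response was not seen. RNA levels do not show protein amounts or the activity of HSF1. The counts come from whole cultures and from unique alignments, which lowers the levels of genes with close copies. Windows were compared with annotated transcripts only, so copies elsewhere in the genome were missed. TMM assumes that most genes do not change, and 64.1% were called here. Sequence matches were not tested for binding. Results for genes outside the lists, and the other analyses of the series, were left out.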

Additional observations from a re-analysis of the deposited data

Results flagged for a closer look

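In each group of 4, for each of the 9 tested genes among the 10, the named genes, the 5 ratios and the marker sums, the gap between the most extreme value and its neighbour was set against the range of the group. Chance flags about 1 in 20 groups by this rule, and 12 of 138 were found. None was left out, and no cause was tested.

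LPS replicate 3 stood apart 4 times. Pfdn2 was at 10.9 CPM there, with 16.6 to 17.2 CPM in the other LPS libraries, and Fos at 26.9 CPM, with 35.3 to 35.6 CPM in the others. The log2 ratio of Hspe1 to Hspd1 was −2.42, with −0.72 to −0.44 in the others, and that of Dnajb1 to Hspa8 was 1.67, with 1.25 to 1.30. LPS replicate 1 stood apart with Ier3 at 706 CPM (365 to 411 CPM in the others), an astrocyte sum of 124 CPM (41.3 to 49.3 CPM) and an OPC sum of 139 CPM (63.7 to 65.4 CPM). In LPS replicate 2, Hspa1b was at 6.69 CPM, with 9.09 to 9.32 CPM in the others.

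Among vehicle libraries, replicate 3 held Ubb at 88.8 CPM (70.6 to 72.3 CPM in the others) and Creld2 at 26.2 CPM (18.8 to 19.9 CPM). Vehicle replicate 1 held Egr2 at 11.4 CPM (4.93 to 5.93 CPM) and Il6 at 0.420 CPM (0 to 0.0634 CPM).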

How the results depend on the processing

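Over all genes, 4191 were higher and 4686 lower after LPS. With total counts these became 1989 and 8454, because that scaling moved the median log2 fold change of all genes by −0.68. Upper quartile factors moved it by −0.16, with 3589 higher and 5481 lower. A minimum log2 change of 1 left 2224 higher and 2998 lower, which follows from the stricter rule. With a library left out in turn, 3952 to 4393 were higher and 4003 to 5015 lower.

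Hspa8 and Hsph1 had negative values with total counts, −0.24 and −0.12, and neither was called. Hsp90ab1, at 0.08, was not called with total counts either, and Hspe1 was called there and with upper quartile factors. A minimum log2 change of 1 dropped the calls of Hspa8, Hsp90ab1, Hsph1 and Hspd1. Leaving out any library kept the calls of the 8 called genes. At least 10 counts in every library gave no value for Hspa1a, Hspa1b and Hspe1.

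With a replicate block, taken as paired libraries, the values of the ratios are the same by construction, since the mean of the paired differences equals the difference of the group means. The 3 ratios that differed (0.92 for Hsp90aa1 to Hsp90ab1, 5.02 for Hspa1a plus Hspa1b to Hspa8 and 0.81 for Dnajb1 to Hspa8) each had the same sign in 4 of 4 pairs. None was called (adjusted p = 0.208), because sign flips over 4 pairs in an exact permutation test allow no two-sided p below 0.125. The block changed no call of the 9 genes, and of the other genes named it changed that of Hsf4 alone. In the lists it moved the count of higher genes from 7 to 9 for ER chaperones and for DNAJC, from 8 to 7 for DNAJA and DNAJB, and from 7 to 6 for immediate early genes. It moved the count of lower genes from 1 to 4 for HSF1 targets, from 2 to 3 for small heat shock genes, from 7 to 6 for mitochondrial genes, from 4 to 3 for HSP70 cochaperones and from 2 to 1 for heat shock factors. Among markers it moved the lower genes from 3 to 6 for OPC, from 3 to 4 for astrocytes and from 5 to 6 for neurons, and the higher ones from 3 to 4 for endothelial cells and from 1 to 2 for fibroblasts. Without LPS replicate 3, and with no block, the lower neuronal genes went from 5 to 3.

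The ratio of Hsph1 to Hspa8, 0.13 with all libraries, ranged from −0.021 to 0.21 with a library left out, and turned negative without vehicle replicate 3. The ratio of Hspe1 to Hspd1 ranged from −0.78 without vehicle replicate 2 to −0.0019 without LPS replicate 3. Neither was called in any setting.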
